A study of Arabidopsis thaliana with 12 samples.

Results

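This section describes how splicing differed between plants that had been at 25 °C for 1 day and plants that had been at 25 °C for 3 days. It rests on 6 of the 12 samples of the series, 3 per day. All 638 splicing events of the deposited table, which lie in 511 genes, were compared as PSI on day 3 minus PSI on day 1. No event was left out, and the authors' calls were not used. PSI, the percentage of spliced in, is the estimated share of 1 of the alternative isoforms of an event, written here as a fraction between 0 and 1.

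All plants were wild-type Arabidopsis of ecotype Col-0 grown at 16 °C for 5 weeks in short days of 8 h light and 16 h dark. The day 1 and day 3 plants were then moved to 25 °C and harvested 1 or 3 days later. Further groups, of 3 samples each, stayed at 16 °C until day 1 or were kept at 25 °C until day 5, and served here as reference values. Each sample was made of shoot apical meristem-enriched tissue of about 10 plants, from which leaves had been cut off, and the labels call it shoot apical meristem with leaves at early stages. The table holds PSI only, so this tissue could not be checked against marker genes. No group stayed at 16 °C until day 3. The additional time at 25 °C and the additional age of the plants cannot be told apart.

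In splicing, the spliceosome removes introns from the pre-mRNA after it has recognised a 5′ splice site, a branch point and a 3′ splice site. A gene can give rise to several transcripts when an intron stays in, when an exon is skipped or when another splice site is used. In plants, many of these transcripts carry an early stop codon and are broken down by nonsense-mediated decay, and temperature is known to affect the choice between isoforms in flowering time genes, clock genes and genes of splicing factors themselves.

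The table has 1 value per group and event, with no spread between replicates and no read depth, so every difference below is a description without a test. Values were rounded by the authors to steps of 0.01. An event was taken to have moved when the days differed by at least 0.02. Each event is in the table because the authors called it different from 16 °C on at least 1 day at 25 °C, and no call compared days 1 and 3 directly. The list is still not neutral for that comparison. An event close to its 16 °C value on day 1 can be listed for day 3 or day 5 alone. For such events a later difference was part of the choice. The sources used here do not give which isoform was set as the reference, so a higher PSI of a retained-intron event is not read here as more retention. For the other event types, too, a higher PSI does not tell which isoform gained.

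Between days 1 and 3 most events stayed close to where they were. The median absolute difference was 0.03, compared with 0.11 between 16 °C and day 1 and 0.02 between days 3 and 5. PSI was equal on both days for 68 events, and 186 events differed by no more than 0.01. A further 239 events differed by 0.02 to 0.04 and 151 by 0.05 to 0.09. A difference of at least 0.1 was seen for 62 of the 638 events (9.72%), in 53 genes. By the same minimum, 388 events (60.8%) differed between 16 °C and day 1 and 43 (6.74%) between days 3 and 5. Of the 62 events, 18 differed by exactly 0.10, and 11 more stood just outside at 0.09.

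**Figure D1:**
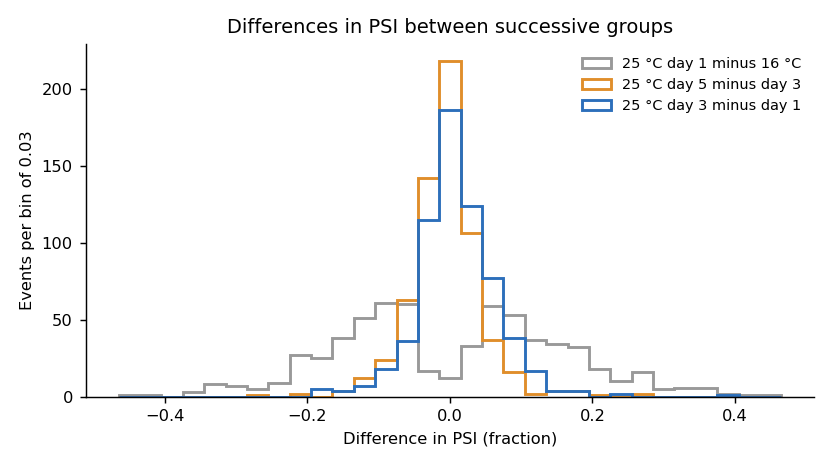
Histogram of the differences in PSI between successive groups for all 638 events, in bins of 0.03 on the x axis, with the number of events on the y axis. The difference between days 3 and 1 (blue) lies close to 0 with a median absolute value of 0.03, and so does that between days 5 and 3 (orange, 0.02), while day 1 minus 16 °C (grey) spreads to both sides with 0.11.

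More events were higher on day 3 than lower. PSI was at least 0.1 higher for 38 events (5.96%) and at least 0.1 lower for 24 (3.76%). The share higher among these was 61.3%, with an exact 95% binomial interval of 48.1% to 73.4%. The interval treats the events as independent, although events of 1 gene share reads, and it does not give the spread between plants. With 1 event per gene the share was 55.6%. At a minimum of 0.05, 213 events differed (33.4%), of which 143 were higher (22.4%) and 70 lower (11.0%). The differences ranged from -0.19 to 0.38, with a median of 0.01.

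In each event type with more than 2 events, more were higher than lower at the minimum of 0.05, and the share of higher events was 67.1% over all types. Among 246 retained-intron events, 67 were higher and 19 lower on day 3 (77.9% higher). For alternative 3′ sites the counts were 40 and 32 of 213, for alternative 5′ sites 19 and 11 of 112, and for skipped exons 17 and 7 of 65. Of retained introns that had been lower on day 1 than at 16 °C, 37 were higher and 7 lower on day 3, and of those that had been higher on day 1, 30 and 12. The same counts were 77 and 25, and 65 and 45, over all events, and 8 and 3, and 9 and 4, for skipped exons. Differences between types were not tested. At the minimum of 0.1, 16 retained introns were higher and 10 lower, so that the share of higher events, 61.5%, was close to the 61.3% of all events. Only 2 events of mutually exclusive exons are listed, and neither reached 0.1.

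**Figure D2:**
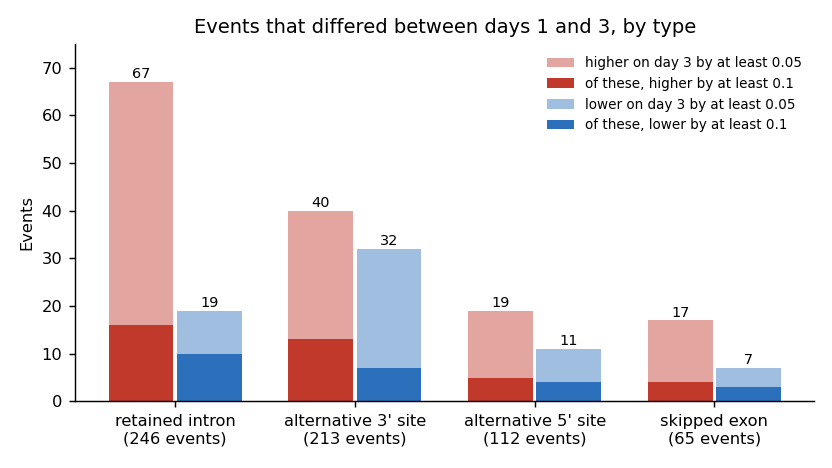
Number of events (y axis) that were higher (red) or lower (blue) on day 3 than on day 1, by event type, with at least 0.05 in light and at least 0.1 in dark colour. Retained introns have 67 higher and 19 lower events, alternative 3′ sites 40 and 32.

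The day 1 value of each event was then placed against its 16 °C value, to ask whether the difference went on, turned back or went past it. Of the events that moved, 204 had by day 3 gone further away from it, 238 had come nearer and 9 had passed it by at least 0.02. For 1 event the values at 16 °C and on day 1 were equal and gave no direction. Among the 213 events of at least 0.05, 90 were further, 117 nearer and 5 past, and among the 62 of at least 0.1, 21 were further, 37 nearer and 4 past. The day 1 value enters both differences, so that a chance deviation on day 1 alone also gives a nearer value on day 3. The choice of events can act the other way. An event close to 16 °C on day 1 can be listed for a later day alone. With a day 1 change under 0.1, 105 events were further, 49 nearer and 8 past. With 0.1 to 0.19 the counts were 69, 113 and 1, and with at least 0.2 they were 30, 76 and 0. How far each shaped the split was not tested. With the direction taken from day 5, a direction that uses neither day 1 nor day 3, 214 events moved with the change from 16 °C and 236 against it, and 25 and 37 of those of at least 0.1. The move itself still holds the day 1 value. Of the 204 further events, 203 counted as with the change, and of the 238 nearer events, 234 counted as against it. Both directions thus gave nearly the same split, and the second cannot set aside a chance deviation on day 1. Day 5 was nearer to day 3 than to day 1 for 40 of the 62 events and nearer to day 1 for 20, with 2 ties.

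**Figure D3:**
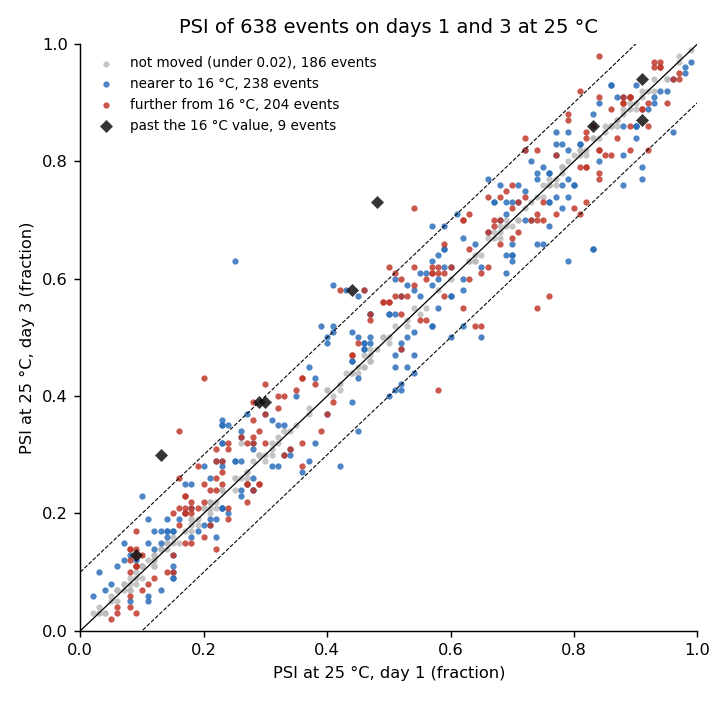
PSI on day 3 (y axis) against PSI on day 1 (x axis) at 25 °C for 638 events, coloured by class, with 1 event of no direction in grey. The solid line marks equal values and the dashed lines a difference of 0.1. Most points lie between the dashed lines, 38 events lie on or above the upper one and 24 on or below the lower one.

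Events of at least 0.1 made up 28 of 126 events (22.2%) with a day 1 change of at least 0.2, 18 of 262 with 0.1 to 0.19, and 16 of 250 with less. The day 1 value enters both differences here too, and 24 of the 28 were nearer to 16 °C on day 3, so these counts are a description only. By level, they made up 50 of 355 events (14.1%) at a 16 °C PSI of 0.2 to 0.8, 4 of 149 below and 8 of 134 above. A PSI close to 0 or 1 leaves less room for a difference. In the reference annotation, genes of these events had a median of 11 introns and a median length of 4039 bases, compared with 10 introns and 3435 bases for the genes of the other events.

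Splice sites are shown here for a few genes in which the reference has a single candidate for the event. The table gives no position of an event within its gene. Sequences are therefore given only for events of at least 0.1 whose gene has a single candidate of that type within its coding span in the reference (RefSeq, TAIR10.1), and they rest on that annotation. The events were detected on assembled transcripts, so an event may use other sites than those shown. In the same annotation, 98.5% of the 5527 introns of the listed genes start with GT and end with AG.

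The remorin gene *AT2G41870*, on the minus strand, has a single annotated intron of 576 bases (chr2:17471320-17471895). The reference annotates no transcript that retains it. Its ends are given as chr2:17471856-17471905 and chr2:17471310-17471359, each with 10 exon and 40 intron bases and with the first and last intron dinucleotide in capitals:
AT2G41870 intron start: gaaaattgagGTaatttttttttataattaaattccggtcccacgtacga
AT2G41870 intron end: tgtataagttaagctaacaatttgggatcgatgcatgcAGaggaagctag
The only annotated retained intron of *AT1G76720*, of a translation initiation factor family, has 69 bases (chr1:28798204-28798272, minus strand), with the same dinucleotides in capitals:
AT1G76720 intron: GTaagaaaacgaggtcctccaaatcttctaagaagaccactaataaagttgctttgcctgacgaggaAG
In *AT5G50130* the only annotated pair of alternative 3′ sites lies 3 bases apart (chr5:20392188-20392230, plus strand), and capitals mark the last dinucleotide of the intron for each site:
AT5G50130 3′ sites: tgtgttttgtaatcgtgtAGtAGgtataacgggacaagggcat
In the protein kinase gene *AT2G37840* the only annotated pair of alternative 5′ sites lies 112 bases apart (chr2:15853044-15853195, plus strand), and capitals mark the first dinucleotide of the intron for each site:
AT2G37840 5′ sites: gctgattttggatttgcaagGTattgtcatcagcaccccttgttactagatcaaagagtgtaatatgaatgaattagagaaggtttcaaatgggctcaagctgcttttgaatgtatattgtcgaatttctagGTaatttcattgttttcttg

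The events of these genes took different courses. PSI of the retained-intron event of *AT2G41870* was 0.21 at 16 °C, 0.54 on day 1, 0.72 on day 3 and 0.58 on day 5. It was 0.18 higher on day 3 than on day 1, further from 16 °C, and by day 5 had returned close to its day 1 value. The retained-intron event of *AT1G76720* had the same order of values, 0.53 at 16 °C, 0.72 on day 1, 0.84 on day 3 and 0.76 on day 5. For the alternative 5′ event of *AT2G37840*, PSI was 0.30 at 16 °C, 0.45 on day 1, 0.34 on day 3 and 0.35 on day 5. Here day 3 stood 0.11 below day 1 and near the 16 °C value, and day 5 was like day 3.

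*AT5G50130*, annotated as an NAD(P)-binding Rossmann-fold protein, was the gene in which 3 listed events were all at least 0.1 higher on day 3. The 3-base pair of 3′ sites shown above is the only annotated candidate for the alternative 3′ event of the gene. This event had a PSI of 0.78 at 16 °C, 0.84 on day 1, 0.98 on day 3 and 0.97 on day 5. One retained intron had 0.52, 0.48, 0.73 and 0.81 in the same order, and the other had 0.41, 0.42, 0.58 and 0.62. At 16 °C and on day 1 the values of each intron differed by no more than 0.04. The difference of 0.25 or 0.16 appeared between days 1 and 3 and was still present on day 5. Such events can be listed for a later day alone, so this late difference may have been part of the choice. The first of these introns was also the event farthest past its 16 °C value.

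The largest difference of all was seen for an alternative 5′ site of *AT5G28400*, which encodes a protein of unknown function. PSI was 0.68 at 16 °C, 0.25 on day 1, 0.63 on day 3 and 0.49 on day 5. The value of day 3 was thus 0.38 above that of day 1 and within 0.05 of 16 °C, while day 5 lay between. The exon skipped in *AT3G28956*, a gene for an Rpb4-type core protein of RNA polymerase II, came back more steadily, with 0.41 at 16 °C, 0.10 on day 1, 0.23 on day 3 and 0.40 on day 5. *AT2G33440*, which encodes an RNA-binding protein with RRM motifs, had a skipped exon with 0.51, 0.23, 0.36 and 0.34 in the same groups. In *AT2G30480*, of unknown function, a retained intron with 0.68 at 16 °C and 0.41 on day 1 reached 0.59 on day 3 and was back at 0.46 on day 5.

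Other high values on day 3 belonged to genes of known families. *CYCB1;5*, which encodes a B-type cyclin, had an alternative 5′ site with 0.75 at 16 °C, 0.57 on day 1, 0.69 on day 3 and 0.63 on day 5. *RUS3*, a member of the ROOT UV-B SENSITIVE family, had a retained intron with 0.26, 0.50, 0.62 and 0.40. The first was nearer to 16 °C on day 3 and the second further away. In *AT1G28395*, of unknown function, a skipped exon had been almost the same at 16 °C (0.27) and on day 1 (0.30), and stood at 0.42 on day 3 and 0.37 on day 5. Here, too, the later difference may have been part of the choice.

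Among the lower values, *ATMRP12*, which encodes an ABC transporter, and *AT1G61490*, of the S-locus lectin protein kinase family, shared the lowest difference, -0.19. The alternative 3′ site of *ATMRP12* had a PSI of 0.80 at 16 °C, 0.76 on day 1, 0.57 on day 3 and 0.52 on day 5. The retained intron of *AT1G61490* had 0.82, 0.74, 0.55 and 0.73. The former kept its low value on day 5, whereas the latter was low on day 3 alone. The skipped exon of *AT1G03905*, a P-loop nucleoside triphosphate hydrolase, was also lowest on day 3, with 0.79 at 16 °C, 0.58 on day 1, 0.41 on day 3 and 0.68 on day 5. An alternative 3′ site of *AT5G03560*, a TPR-like protein, had 0.73, 0.64, 0.52 and 0.52.

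Further low values on day 3 were returns towards 16 °C. *TMT2*, which encodes a sugar transporter of the vacuolar membrane, had an alternative 5′ site with 0.49 at 16 °C, 0.65 on day 1, 0.50 on day 3 and 0.57 on day 5. Other alternative 5′ events of *TMT2* returned less. They had 0.32, 0.60 and 0.53 on day 1 and 0.28, 0.57 and 0.50 on day 3. Their 16 °C values were 0.23, 0.44 and 0.37. *GTG2*, annotated as a GPCR-type G protein, had an alternative 3′ site with 0.82, 0.96, 0.85 and 0.91. *AT1G50910*, of unknown function, had an alternative 3′ site with 0.74, 0.88, 0.76 and 0.76. In all of them day 1 held the highest value of the 4 groups. A skipped exon had 0.47 at 16 °C, 0.83 on day 1, 0.65 on day 3 and 0.68 on day 5 under *AT5G18245*, a long non-coding RNA, and nearly the same values under the neighbouring gene *AT5G18250* in the same assembled locus. An alternative 3′ site was likewise listed under *AT5G43910*, a pfkB-like carbohydrate kinase, with 0.26, 0.52, 0.41 and 0.43, and under *MYA2*, a myosin, with a day 3 value of 0.42. The 62 events thus came from 51 assembled loci, and in these 2 loci the same reads may have been counted under both gene names.

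The 9 events past the 16 °C value lay in 7 genes, and 8 of them had differed from 16 °C by less than 0.1 on day 1. For these a later difference may have been part of the choice. *CLC-D*, which encodes a member of the chloride channel family, had an alternative 3′ site with 0.16 at 16 °C, 0.13 on day 1, 0.30 on day 3 and 0.23 on day 5. In *AT1G64430*, a pentatricopeptide repeat protein, an alternative 3′ site had 0.55, 0.44, 0.58 and 0.60. After *AT5G50130* and *CLC-D*, no event was past 16 °C by more than 0.03. The alternative 5′ site of *AT4G34150*, a calcium-dependent lipid-binding protein, had 0.90 at 16 °C, 0.91 on day 1, 0.87 on day 3 and 0.81 on day 5, and a retained intron of the same gene had 0.11, 0.09, 0.13 and 0.19. The others were a skipped exon of the spliceosome-associated *AT4G21660*, a retained intron of *ZIGA4* and a pair of alternative 3′ sites of *RIK*.

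*RIK* encodes a KH-domain protein that interacts with the ROUGH SHEATH2 protein, and all 5 of its listed events were at least 0.05 higher on day 3. One of the alternative 3′ sites had 0.36 at 16 °C, 0.29 on day 1, 0.39 on day 3 and 0.37 on day 5, and the other had 0.37, 0.30, 0.39 and 0.36. The retained introns had 0.46, 0.33 and 0.42 at 16 °C, 0.26, 0.23 and 0.23 on day 1, and 0.33, 0.32 and 0.32 on day 3. Every event of the gene was thus lowest on day 1. *AT2G19250*, a transcribed pseudogene, also had all 5 events higher on day 3 by at least 0.05, although they had moved in opposite directions on day 1. An alternative 3′ site had 0.12 at 16 °C, 0.20 on day 1, 0.43 on day 3 and 0.31 on day 5. For both other 3′ sites PSI was 0.62 on day 1 and 0.70 on day 3, from 0.18 and 0.19 at 16 °C. Its retained introns had 0.86 and 0.88 at 16 °C, 0.52 and 0.53 on day 1, and 0.57 and 0.59 on day 3.

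Of the 86 genes with more than 1 event, 24 had at least 2 events that differed by 0.05 or more. These were all higher on day 3 in 14 genes, all lower in 4 and of both directions in 6. Events of 1 gene share reads and cannot be taken as independent. In 3 genes, 1 event was at least 0.1 higher and another at least 0.1 lower.

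The first of these was *AT4G03230*, of the S-locus lectin protein kinase family like *AT1G61490*, with 5 retained-intron events. Those with 0.65 and 0.61 at 16 °C had 0.45 and 0.41 on day 1 and were higher on day 3, at 0.57 and 0.52. Those with 0.55 and 0.44 at 16 °C had 0.91 and 0.79 on day 1 and were lower on day 3, at 0.77 and 0.63. The last had 0.28 at 16 °C, 0.51 on day 1 and 0.47 on day 3. All 5 events had thus turned back towards 16 °C by day 3, though none had reached it by day 5. In *AT3G61010*, a ferritin/ribonucleotide reductase-like protein, an alternative 3′ site had 0.62 at 16 °C, 0.27 on day 1, 0.37 on day 3 and 0.42 on day 5, and a retained intron had 0.63, 0.91, 0.79 and 0.86. In the non-coding RNA *AT5G28262*, an alternative 5′ site had 0.05, 0.16, 0.34 and 0.08, and a retained intron had 0.84, 0.65, 0.52 and 0.70. Both of these were further from 16 °C on day 3 and came back towards it on day 5. Another retained intron of the gene, with 0.85, 0.54, 0.58 and 0.60, was nearer to 16 °C on day 3.

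**Figure D4:**
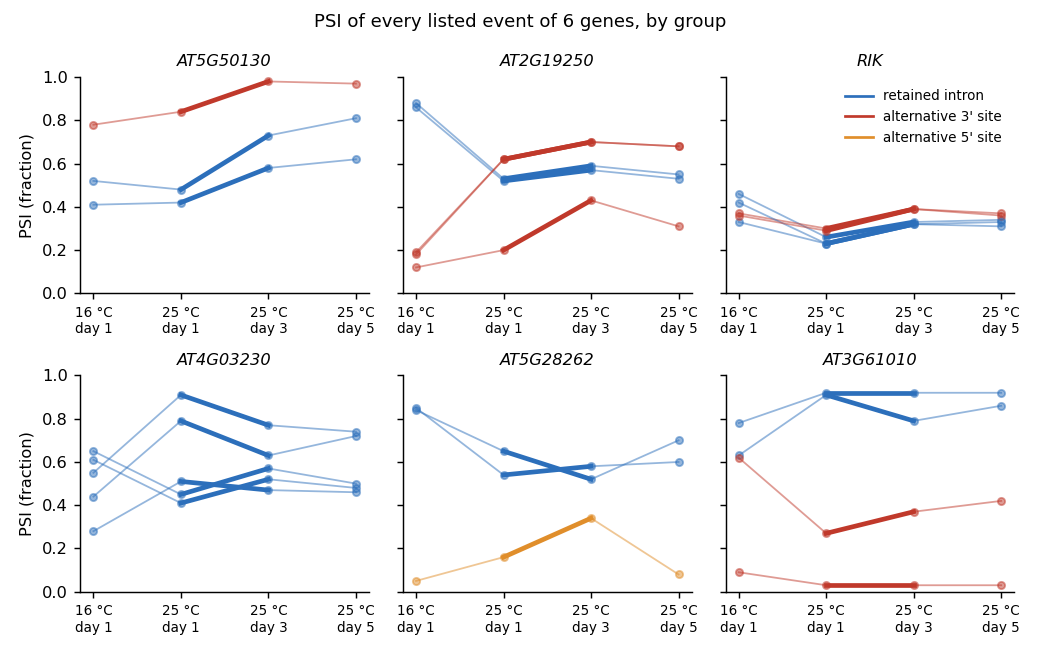
PSI (y axis) of every listed event of 6 genes at 16 °C and on days 1, 3 and 5 at 25 °C (x axis), 1 line per event, coloured by event type, with the step from day 1 to day 3 drawn thick. In *AT5G50130*, *AT2G19250* and *RIK* every thick segment goes up, and in *AT4G03230* the segments go towards the 16 °C values.

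By gene class of the reference, events of at least 0.1 were 52 of 599 (8.68%) in protein-coding genes, 1 of 13 in transcribed pseudogenes, 0 of 1 in another pseudogene, 3 of 8 in genes of other non-coding RNAs, 2 of 9 in long non-coding RNA genes and 3 of 3 in microRNA genes. The non-coding events came from few genes. Both long non-coding RNA events were in *AT5G18245*, 2 of the 3 other non-coding RNA events were in *AT5G28262*, and 2 of the 3 microRNA gene events had identical values. Read depth, which could differ between these classes, is not in the table, and its part was not tested. The microRNA genes were *MIR824* (*AT4G24415*, chr4:12625094-12625782, plus strand) and *MIR171b* (*AT1G11735*, chr1:3961348-3961464, minus strand). MicroRNAs are cut from hairpin precursors, and in Arabidopsis miR824 targets the MADS-box gene *AGL16* and miR171 targets GRAS transcription factors that keep shoot meristems active. Their main mature sequences are shown to identify the genes, with bases 2 to 8, the seed, in capitals. They share no seed:
miR824-5p: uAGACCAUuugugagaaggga
miR171b-3p: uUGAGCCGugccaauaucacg

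For *MIR824*, 2 retained-intron events had identical values of 0.40 at 16 °C, 0.23 on day 1, 0.35 on day 3 and 0.31 on day 5, and they may describe the same reads. For *MIR171b*, PSI of a retained intron was 0.62 at 16 °C, 0.39 on day 1, 0.52 on day 3 and 0.52 on day 5. In both genes PSI was lowest on day 1 and then nearer to 16 °C. The reference annotates no intron in either gene, so the events come from the authors' assembled transcripts and their position relative to the mature sequence is not known here. The non-coding RNA *AT2G07042* had an alternative 5′ site with a like course, 0.75 at 16 °C, 0.43 on day 1, 0.58 on day 3 and 0.56 on day 5, while its retained intron stayed at 0.20 and 0.21 on days 1 and 3.

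Genes that control flowering time were represented by 13 genes with 17 events, of which 10 (58.8%, with 33.4% over all events) differed by at least 0.05 between days 1 and 3, 5 in each direction. A difference of at least 0.1 was seen for 2 of them (11.8%), near the 9.72% of all events. The median absolute difference was 0.06, with 0.03 over all events. In this list 11 events were further from 16 °C on day 3 and 4 nearer, compared with 204 and 238 over all events. That split varied with the day 1 change. Over all events it was 105 and 49 below 0.1, and 30 and 76 at 0.2 or more. Some further events here, as in *FCA*, *VIL2* and *MOS1*, had day 1 changes under 0.1, and others, as in *MAF3* and *HUA2*, larger ones. The list was chosen with earlier results known, and its difference from all events was not tested. The MADS-box repressors of flowering were among those further away. The mutually exclusive exons of *FLM* had 0.93 at 16 °C, 0.84 on day 1, 0.78 on day 3 and 0.75 on day 5. An alternative 3′ site of *MAF3* had 0.97, 0.84, 0.77 and 0.81. By contrast, the retained introns of *FLM* (0.31 and 0.32 on days 1 and 3) and *MAF2* (0.52 and 0.54) moved by no more than 0.02.

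*HUA2*, a regulator of the expression of MADS-box genes, had a retained intron with 0.95 at 16 °C, 0.77 on day 1, 0.71 on day 3 and 0.66 on day 5. *FCA* encodes an RNA-binding protein of the autonomous pathway that lowers *FLC* expression. Its alternative 5′ site had 0.43, 0.46, 0.58 and 0.47, so that the high value was limited to day 3, and its retained intron had 0.28, 0.18, 0.15 and 0.13. *VIL2*, of the VIN3-like family that acts with Polycomb proteins at *FLC*, had a pair of alternative 3′ sites with 0.45 at 16 °C, 0.50 and 0.49 on day 1 and 0.56 on day 3. *MOS1*, known as a modifier of immune receptor expression, had a skipped exon with 0.10, 0.17, 0.23 and 0.22.

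Others on the list turned back. *EDM2*, a chromatin protein with roles in immunity and flowering, had a retained intron with 0.24 at 16 °C, 0.42 on day 1, 0.28 on day 3 and 0.35 on day 5. An alternative 5′ site of *SIZ1*, a SUMO ligase, had 0.03, 0.15, 0.09 and 0.10. A retained intron of *HRB1*, which acts in red and blue light signalling, had 0.26, 0.14, 0.19 and 0.23. Day 3 thus stood between day 1 and 16 °C in each of them.

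The circadian clock list held 8 genes with 13 events. Of these, 4 (30.8%) differed by at least 0.05, close to the 33.4% of all events. None differed by 0.1, a minimum that 9.72% of all events reached. All 4 were nearer to 16 °C on day 3, as were 117 of the 213 such events of the table. *PRR3*, a pseudo-response regulator, had a retained intron with 0.43 at 16 °C, 0.23 on day 1, 0.29 on day 3 and 0.27 on day 5. *LNK1*, a coactivator of the clock, had a skipped exon with 0.57, 0.47, 0.54 and 0.53. Its relative *LNK4* had an alternative 3′ site with 0.95, 0.79, 0.85 and 0.89. Another 3′ site of *LNK4* was at 0.53 on days 1 and 3 and at 0.67 on day 5, having been at 0.79 at 16 °C. For *CKB1*, a regulatory subunit of casein kinase 2, an alternative 3′ site had 0.05, 0.15, 0.10 and 0.09.

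Genes of splicing factors, on 2 lists of 14 and 20 events, held no event of at least 0.1, a minimum that 9.72% of all events reached. The 14 events of 10 genes for SR and SR-like proteins, which bind RNA and help to select splice sites, all kept within 0.04 of their day 1 value, whereas 33.4% of all events differed by 0.05 or more. A skipped exon of *SCL33* had 0.52 at 16 °C and 0.78 on each of days 1, 3 and 5. The list of other splicing factors held 17 genes with 20 events, of which 5 (25%, with 33.4% over all events) differed by at least 0.05. All 5 were nearer to 16 °C on day 3, with 117 nearer and 90 further among all such events. *U2AF65A*, the U2AF subunit that binds the pyrimidine tract before the 3′ site, had an alternative 3′ site with 0.64, 0.40, 0.49 and 0.52 and a retained intron with 0.34, 0.53, 0.45 and 0.41. *U1-70K*, a protein of the U1 particle that recognises the 5′ site, had an alternative 5′ site with 0.46, 0.54, 0.47 and 0.46. A pair of alternative 5′ sites of *AT5G11170*, a DEAD/DEAH box RNA helicase, had 0.76 at 16 °C, 0.67 on day 1 and 0.73 on day 3.

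Of the 19 events in 16 genes of chromatin and gene silencing, 6 (31.6%) differed by at least 0.05, close to the share of all events, 3 in each direction. All 6 were nearer to 16 °C, with 117 of 213 over all events. This depends on the list, because *VIL2* and *EDM2* were counted under flowering time and not here. Both *VIL2* events were further from 16 °C on day 3 and the *EDM2* event was nearer. *TPR1*, a TOPLESS-related corepressor, had an alternative 3′ site with 0.34 at 16 °C, 0.60 on day 1, 0.50 on day 3 and 0.54 on day 5. A pair of retained introns of *AT1G51745*, a Tudor/PWWP/MBT protein, had 0.99, 0.86, 0.93 and 0.93. The retained intron of *AT3G48050*, a BAH domain protein, had 0.29, 0.18, 0.25 and 0.25. The other 2 were alternative 3′ sites, of the bromodomain protein *AT1G58025* (0.51 on day 1 and 0.45 on day 3) and of the DNA-binding protein *AT3G18380* (0.57 and 0.52).

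Immune receptors of the NLR type were 5 genes with 9 events. *RPS6*, which gives resistance to bacteria, had a retained intron with 0.64 at 16 °C, 0.46 on day 1, 0.58 on day 3 and 0.56 on day 5. A retained intron of *RPS4*, another such gene, had 0.16, 0.06, 0.11 and 0.11, and one of *AT5G40910* had 0.40, 0.70, 0.63 and 0.66. These 3 events (33.3%, with 33.4% over all events) were nearer to 16 °C, and the remaining 6 differed by less than 0.05. Among 10 events of 8 hormone genes, 1 (10%, with 33.4% over all events) differed by 0.05 or more. This was a skipped exon of *BRXL3*, of the BREVIS RADIX family, with 0.84, 0.72, 0.82 and 0.72.

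Of 14 events in 13 chloroplast and photosynthesis genes, 2 (14.3%, with 33.4% over all events) differed by at least 0.05. A retained intron of *ARC5*, a dynamin-like protein of chloroplast division, had 0.87 at 16 °C, 0.77 on day 1, 0.85 on day 3 and 0.83 on day 5. *SIG4*, a sigma factor of the plastid RNA polymerase, had an alternative 3′ site with 0.53, 0.70, 0.64 and 0.65. Kinases, taken as the 36 genes whose annotation contains the word, had 47 events, of which 7 (14.9%, with 9.72% over all events) differed by at least 0.1, 2 higher and 5 lower. *AT4G03230* alone gave 4 of these 7. At the minimum of 0.05 the counts were 7 and 7, or 29.8% with 33.4% over all events. The retained intron of *AT1G53440*, a leucine-rich repeat kinase, had 0.17, 0.24, 0.32 and 0.30, and an alternative 3′ site of *AT1G49730* had 0.51, 0.66, 0.74 and 0.70.

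**Figure D5:**
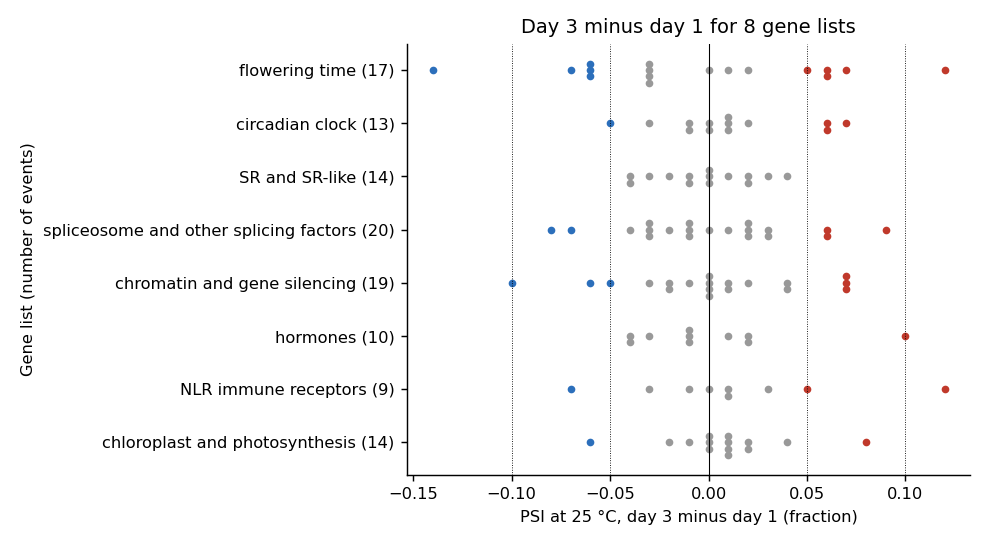
Difference in PSI between days 3 and 1 (x axis) for each event of 8 gene lists (y axis, number of events in brackets), with events of at least 0.05 in red when higher and in blue when lower. Dotted lines mark 0.05 and 0.1. Over all 638 events, 33.4% reach 0.05. The share in the lists runs from none of the 14 SR and SR-like events to 10 of the 17 flowering time events, and differences between lists were not tested.

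A large change on day 1 could also be exactly the same on day 3. The largest of this kind was an alternative 3′ site of *AT3G46385*, a transcribed pseudogene, with 0.48 at 16 °C and 0.19 on days 1, 3 and 5. In the protein kinase gene *AT1G65950*, a skipped exon had 0.40 at 16 °C, 0.67 on days 1 and 3 and 0.61 on day 5. For *AT3G26430*, a GDSL-like lipase, an alternative 3′ site had 0.74 at 16 °C, 0.99 on days 1 and 3 and 0.90 on day 5. Together with the *SCL33* exon and the *LNK4* site described above, these were the 5 largest changes on day 1 among the 68 events with equal values on days 1 and 3.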

How the data were processed

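The authors mapped paired-end reads to the TAIR10 genome with TopHat2 (TopHat in the submitters' processing notes), assembled and merged transcripts with Cufflinks and Cuffmerge, detected events with custom scripts and quantified PSI by MISO, in single samples and in merged replicates. The sources used here give neither versions nor the isoform set as reference, nor whether strand was used for PSI. The deposited PSI values are fractions between 0.01 and 0.99, rounded by the authors to 2 decimals, with 1 value per group. Whether each is from merged reads or a mean over samples is not stated. A further column with the authors' calls by day against 16 °C was not used.

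Differences were counted in hundredths, with minimums of 0.05 and 0.1, using Python 3.11.15, pandas 2.3.3, numpy 2.4.6, scipy 1.17.1, Biopython 1.88 and matplotlib 3.10.9, and the code was tested on simulated data. Read depth per event is unknown, so no interval of a PSI can be given, and no test was run. Genes are those of the table. Their annotation text gave positions for 599 events with a reference gene, of which 598 lay inside it, and was empty for 38 events. Biotypes, introns and sequences are from RefSeq (TAIR10.1).

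Members and gene lists were chosen with earlier results of these data known. Named were the 15 highest and 15 lowest differences with ties, the 5 events farthest past 16 °C, the 5 largest day 1 changes with equal days 1 and 3, events of 8 gene lists and of kinases with at least 0.05, and genes with events of at least 0.1 in both directions. Other genes named were chosen after their values were seen. Alternatives were other minimums, a logit scale, repeated entries counted once, 1 event per gene, events with a 16 °C PSI of 0.05 to 0.95, and retained introns only.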

Additional observations from a re-analysis of the deposited data

How the results depend on the processing

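Of 52 recomputed values over 7 results, 38 kept their direction and stayed within a set margin. The margin was 1.5 times for a count, 0.01 for the median difference and the exact 95% binomial interval for a share. This interval served only as a yardstick, because it treats events as independent and does not give the spread between plants. The number of events that differed, 62 at a minimum of 0.1, was 213 at 0.05, 16 at 0.15, 3 at 0.2 and 26 for retained introns only, as follows from other limits or fewer events. All 3 events of at least 0.2 were higher on day 3, or 100%, with 61.3% at 0.1. The share further from 16 °C among events that moved, 45.2%, was 33.9% among moves of at least 0.1 and 34.3% where a direction needed a change of at least 0.1. The share moving with the day 5 change, 47.6%, was 40.3% among moves of at least 0.1 and 50.2%, on the other side of 50%, where a direction needed a change of at least 0.1. The cause was not tested. The 9 events past 16 °C were 5 with moves of at least 0.05, 4 with 0.1, 1 with directions of at least 0.1, 5 with 1 event per gene and 3 for retained introns. No paired analysis was possible because the columns hold 1 value per group and carry no replicate letters. For the same reason no replicate could be left out, and differences of a few hundredths cannot be set against the spread between plants.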
